A study of Mus musculus with 40 samples.

Results

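H3K27ac, the acetylation of histone H3 at lysine 27, was compared between cold-exposed and warm-housed mice on a high-fat diet (HFD). The comparison rested on 4 peak lists, 1 per mouse, from brown adipose tissue. Their 92137 peaks joined into 44858 regions when peaks overlapping by at least 1 bp were merged, of 47548 regions over the 8 H3K27ac lists of the series. A region was called cold-only when both cold lists and neither warm list held a peak there, and warm-only in the reverse case. In the full lists 812 regions were cold-only (1.81% of all regions), 4 were warm-only (0.00892%) and 2156 were in all 4 lists. Because 1 warm list was short, the sorting was repeated with the 3000 peaks of each list with the highest −log10 p. That gave 4766 regions, of which 253 were cold-only (5.31%) and 140 were warm-only (2.94%). The last peak inside that limit and the first outside it had the same −log10 p, which was 5.09 and 30.9 in warm mice 7 and 8 and 10.2 and 36.7 in cold mice 10 and 11. These counts describe how the regions were sorted and carry no test.

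The mice were wild type C57BL/6N animals aged 20 weeks. All 4 were switched from chow to HFD at 8 weeks of age and stayed on it for 12 weeks. Mice 10 and 11 were housed at 4 °C for 24 h, while mice 7 and 8 were labelled warm, which the study's methods give as standard room temperature housing. Each list carries 1 mouse number, but the methods can be read as 2 mice per experiment, so the lists may not each be 1 animal. H3K27ac lists of chow-fed mice (mice 1 and 2 warm, mice 4 and 5 cold) and H3K4me3 and H3K4me1 lists of the 4 HFD mice did not enter the sorting and were read separately.

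H3K27ac marks active promoters and enhancers, the latter often far from the gene they act on. H3K4me3 marks promoters and H3K4me1 marks enhancers. Brown adipocytes burn fatty acids for heat through the uncoupling protein UCP1, and cold acts on them through noradrenaline, β-adrenergic receptors and cyclic AMP. The tissue also secretes hormones, such as FGF21 and GDF15, and holds a dense network of blood vessels.

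Sequences of 300 bases around the highest summit are shown for 9 regions, all from the plus strand of GRCm38. The first 4 cold-only and the first 2 warm-only regions were taken by rank, which was the lower of the 2 within-list percentiles by −log10 p. The Fgf21, Ddit4 and Fasn windows were added after their values were seen, since results below turn on them. Capitals mark matches to any of 10 motifs described further on. The windows are chr8:70631073-70631372 (intron of Gdf15), chr7:45614943-45615242 (coding exon of Fgf21), chr10:59943408-59943707 (8276 bp downstream of the Ddit4 start site), chr1:195241587-195241886 (730 bp upstream of Gm27940), chr15:73732356-73732655 (intron of Ptp4a3), chr13:52188305-52188604 (8044 bp downstream of the Gm48199 start site), chrX:76598843-76599142 (intron of Cldn34d), chr3:96044652-96044951 (intron of Vps45) and chr11:120823028-120823327 (intron of Fasn).
Gdf15, cold-only: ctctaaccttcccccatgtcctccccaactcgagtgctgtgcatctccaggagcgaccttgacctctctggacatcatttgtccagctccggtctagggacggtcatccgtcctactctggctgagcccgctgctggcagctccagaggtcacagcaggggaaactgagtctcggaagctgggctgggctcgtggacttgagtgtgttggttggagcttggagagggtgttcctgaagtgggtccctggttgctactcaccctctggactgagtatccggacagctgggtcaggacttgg
Fgf21, cold-only: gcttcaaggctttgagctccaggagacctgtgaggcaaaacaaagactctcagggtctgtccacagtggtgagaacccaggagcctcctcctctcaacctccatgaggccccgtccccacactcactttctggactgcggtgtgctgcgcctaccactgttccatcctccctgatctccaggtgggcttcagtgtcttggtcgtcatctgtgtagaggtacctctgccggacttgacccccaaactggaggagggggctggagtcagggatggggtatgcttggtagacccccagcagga
Ddit4, cold-only: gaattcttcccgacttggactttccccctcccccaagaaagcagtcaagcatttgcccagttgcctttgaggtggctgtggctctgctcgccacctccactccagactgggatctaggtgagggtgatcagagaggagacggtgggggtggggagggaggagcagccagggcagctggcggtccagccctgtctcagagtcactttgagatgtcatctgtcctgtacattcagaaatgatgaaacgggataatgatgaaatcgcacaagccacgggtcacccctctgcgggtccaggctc
Gm27940, cold-only: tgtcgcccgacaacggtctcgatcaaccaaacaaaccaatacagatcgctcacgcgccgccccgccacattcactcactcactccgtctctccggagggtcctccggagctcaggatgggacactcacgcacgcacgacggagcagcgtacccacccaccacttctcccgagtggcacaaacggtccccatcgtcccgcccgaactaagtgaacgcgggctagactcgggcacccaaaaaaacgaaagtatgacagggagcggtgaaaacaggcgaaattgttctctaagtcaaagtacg
Ptp4a3 intron, cold-only: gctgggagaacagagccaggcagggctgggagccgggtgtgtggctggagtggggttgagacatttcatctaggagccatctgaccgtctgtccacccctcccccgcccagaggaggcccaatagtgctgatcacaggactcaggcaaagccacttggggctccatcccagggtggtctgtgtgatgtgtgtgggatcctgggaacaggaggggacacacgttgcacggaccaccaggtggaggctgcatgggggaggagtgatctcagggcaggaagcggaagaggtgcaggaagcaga
Gm48199, cold-only: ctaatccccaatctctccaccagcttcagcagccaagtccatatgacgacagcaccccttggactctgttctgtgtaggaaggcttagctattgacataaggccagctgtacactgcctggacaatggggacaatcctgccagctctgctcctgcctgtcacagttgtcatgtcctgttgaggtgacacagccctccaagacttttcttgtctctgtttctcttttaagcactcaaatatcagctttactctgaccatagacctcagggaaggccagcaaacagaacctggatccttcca
Cldn34d, warm-only: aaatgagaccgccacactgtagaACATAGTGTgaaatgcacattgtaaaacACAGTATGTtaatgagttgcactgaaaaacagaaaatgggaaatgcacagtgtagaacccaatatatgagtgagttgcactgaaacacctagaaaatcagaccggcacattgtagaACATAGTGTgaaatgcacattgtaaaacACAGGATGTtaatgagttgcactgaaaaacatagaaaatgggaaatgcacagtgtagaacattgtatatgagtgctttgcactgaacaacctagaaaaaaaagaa
Vps45, warm-only: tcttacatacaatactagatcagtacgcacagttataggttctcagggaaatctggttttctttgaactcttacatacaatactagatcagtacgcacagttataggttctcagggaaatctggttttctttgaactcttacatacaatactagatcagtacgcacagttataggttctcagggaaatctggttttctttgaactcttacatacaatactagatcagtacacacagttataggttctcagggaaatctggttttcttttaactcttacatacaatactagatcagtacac
Fasn, warm-only among the 3000 highest peaks: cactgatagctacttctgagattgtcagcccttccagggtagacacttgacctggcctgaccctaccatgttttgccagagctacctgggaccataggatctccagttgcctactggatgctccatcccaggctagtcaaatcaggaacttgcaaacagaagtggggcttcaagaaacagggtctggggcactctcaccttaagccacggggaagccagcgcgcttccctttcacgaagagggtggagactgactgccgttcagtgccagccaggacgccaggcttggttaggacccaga

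The 7 stretches of 36 bases sampled from each of the Gdf15, Fgf21, Ddit4, Ptp4a3, Gm48199 and Fasn windows each occurred once in the assembly. In the Gm27940 and Cldn34d windows 6 of 7 did, with the remaining stretch found 2 times for Gm27940 and 3 times for Cldn34d. Of the Vps45 stretches none occurred once, and a stretch of 162 bases was repeated within that window. The Cldn34d window held a repeated stretch of 38 bases. In the other windows shown no stretch longer than 10 bases was repeated.

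By the background pileup fitted to the lists, the libraries fell into 2 pairs of like depth. This pileup was 0.452 for warm mouse 7 and 0.461 for cold mouse 10, against 1.919 for warm mouse 8 and 2.043 for cold mouse 11. The fit explained 53.5% and 23.3% of the peaks used in it for mice 7 and 8, and 68.7% and 44.7% for mice 10 and 11. Read depth itself is not given, so the pairing is approximate. The warm lists held 3224 (mouse 7) and 33798 peaks (mouse 8) and the cold lists 14511 (mouse 10) and 40604 (mouse 11), so that the mouse 7 list stood apart. Within both pairs the cold list was longer. The mean log10 number of peaks differed by 0.37 with a two-sided exact permutation p of 0.667, where 2 against 2 mice cannot go below 0.333. Without mouse 7 the difference reversed to −0.14. Promoters of brown adipocyte markers were marked in all 4 lists for 6 of 10 genes, against 3.8% of protein-coding genes, while 8 of 8 genes of other tissues, such as the liver gene Alb, had no promoter peak in any list. Macrophage and skeletal muscle promoters were unmarked in every list for 10 of 12 genes each, and fibroblast and preadipocyte promoters for 6 of 12. Of all 21951 protein-coding genes, 11734 were likewise unmarked in every list.

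**Figure D1:**
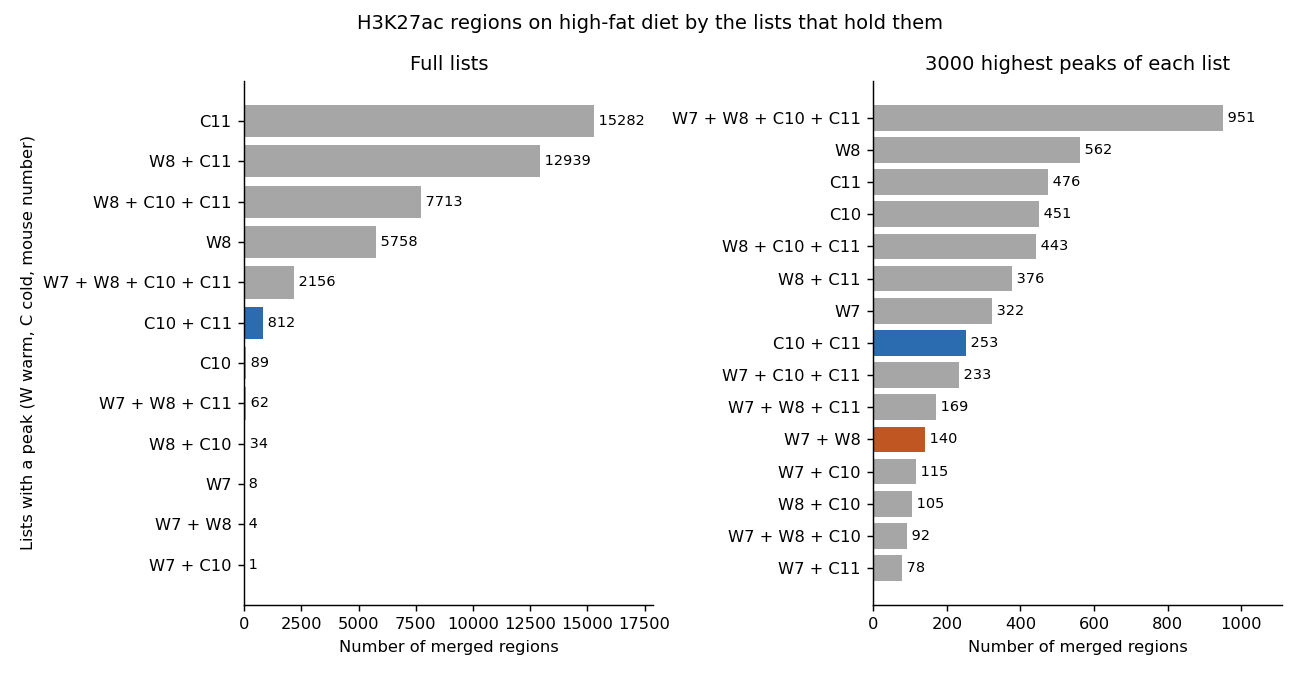
Number of merged H3K27ac regions by the combination of lists that hold a peak there, for the full lists (left) and the 3000 highest peaks of each list (right), where W is a warm and C a cold mouse. The blue bars are the 812 and 253 cold-only regions and the orange bar on the right the 140 warm-only ones, while 15282 regions of the full lists were seen in mouse 11 alone.

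Cold-only regions of the full lists lay mostly away from promoters. The lists come from whole tissue, in which more cells of a type and more mark per cell cannot be told apart. Their summits were within 1000 bp of a start site in 19.8%, against 30.1% of all regions and 37.4% of regions in all 4 lists. More than 10 kb from any start site lay 43.2%, against 38.3% of all regions. They were mostly modest peaks, with a median fold enrichment over background of 4.57 in mouse 10 and 5.59 in mouse 11. Their median within-list percentile was 21.05 in mouse 10 and 58.5 in mouse 11. Each cold-only call required absence from the mouse 8 list, since the count stayed at 812 without mouse 7 and rose to 8691 without mouse 8. Between the deeper mice alone, 16128 regions had a peak in mouse 11 and none in mouse 8, while 5810 showed the reverse.

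Genes of the cellular stress response stood near several cold-only regions. Of 22 such genes, 5 were nearest to a cold-only region, against 1.82% of all protein-coding genes. These were Gdf15, Ddit4, Fgf21, Trib3 and Hspa1a. By region, 6 of the 51 regions nearest to a stress gene were cold-only (11.8%), against 1.65% of regions nearest to any protein-coding gene. The list was drawn up with earlier results for Gdf15 known, so its count is a description.

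Gdf15 encodes a stress-induced hormone that lowers food intake through a receptor in the hindbrain. Its region at chr8:70631002-70631602, whose sequence is shown above, had its summit 872 bp inside the gene. Fold enrichment was 10.4 in mouse 10 and 9.07 in mouse 11, and neither warm list had a peak. In chow-fed mice the cold lists gave 9.0 and 10.6, and again neither warm list had a peak. H3K4me3 at the same place was 17.4-fold in both cold HFD mice and was not called in either warm HFD mouse. The HFD H3K27ac lists had sorted this region, so only the chow and H3K4me3 lists were read apart from the sorting. In each of those, Gdf15 was marked in both cold mice and in neither warm mouse.

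Fgf21 encodes an endocrine factor made by liver and activated brown fat. Its region at chr7:45614910-45615443 had fold values of 4.97 in mouse 10 and 3.56 in mouse 11, and no peak in either warm HFD list. On chow the cold mice had values of 4.58 and 8.01 and the warm mice none. H3K4me3 was called in the cold HFD mice alone, with fold values of 8.66 and 8.94. The Fgf21 peak was weak in mouse 11, at percentile 17.3 of that list.

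Ddit4, also known as Redd1, encodes an inhibitor of the growth-promoting kinase complex mTORC1. A pair of cold-only regions lay 8276 bp and 31018 bp downstream of its start site. The nearer one had fold values of 5.83 and 5.60 in the cold HFD mice and of 4.28 and 4.26 in the cold chow mice, with no peak in any of the 4 warm mice. The farther one had values of 5.34 and 9.87 in the cold HFD mice, and on chow it was also present in warm mouse 2 at 4.83. Among the 3000 highest peaks, regions at the Ddit4 start site (251 bp) and 35783 bp downstream were cold-only too. There warm mouse 8 had weaker peaks in its full list, of 6.21-fold at the start site and 8.30-fold at the far region, while the cold mice had 7.80 and 22.4 at the start site.

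Trib3, a pseudokinase gene downstream of the stress factor ATF4, had values of 5.09 and 3.82 in the cold HFD mice at its start site. On chow, warm mouse 2 had a higher value (6.62) than the cold mice (3.40 and 2.90). Hspa1a, which encodes an inducible Hsp70 chaperone, had values of 5.26 and 3.62 in the cold HFD mice and was also marked in both warm chow mice (4.32 and 8.58). Warm mouse 8 also had a separate peak of 4.52-fold within 1000 bp of the Hspa1a start site. Hspa1a has a near-identical copy, Hspa1b, so that reads may be shared between them. Hence Gdf15, Fgf21 and the nearer Ddit4 region kept the cold pattern on chow, and Trib3 and Hspa1a did not.

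**Figure D2:**
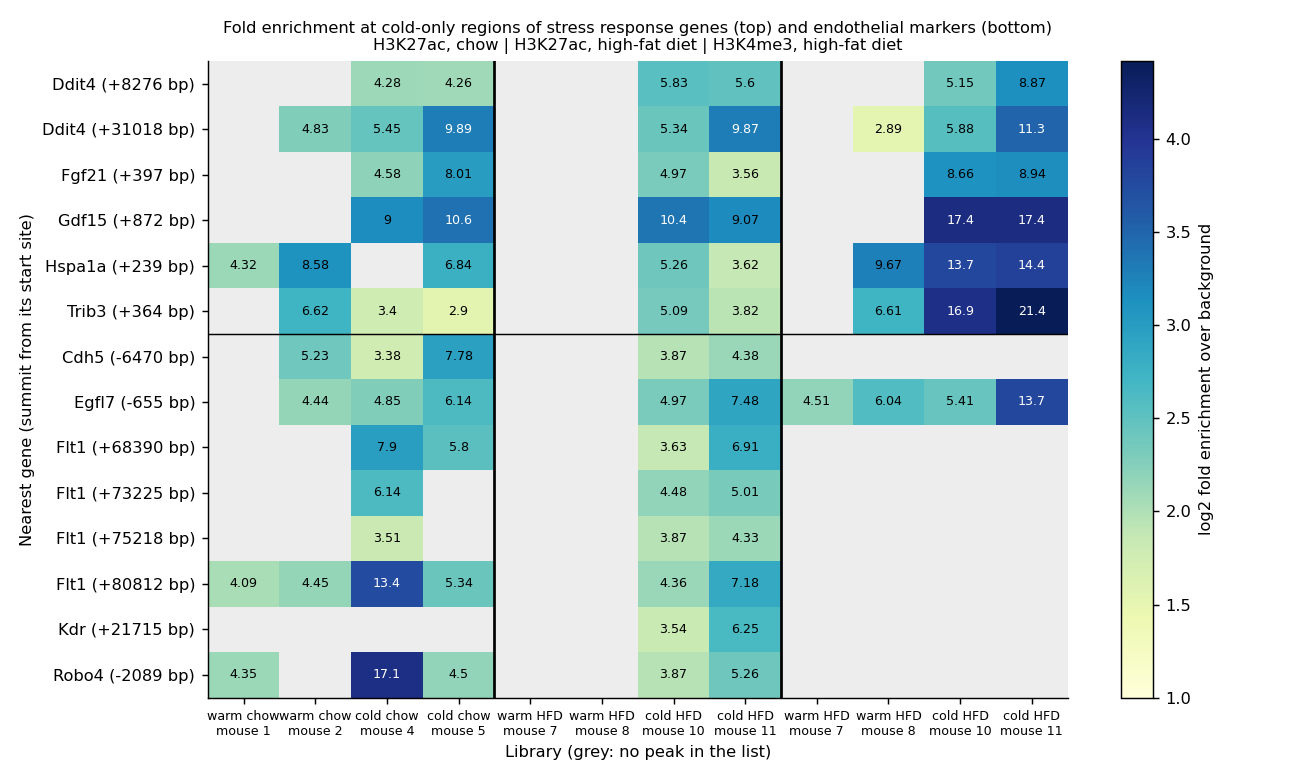
Fold enrichment over background (colour, log2 scale, with the linear value printed) at the cold-only regions nearest to stress response genes and endothelial markers, in each chow and HFD H3K27ac list and in the H3K4me3 lists of the HFD mice, where grey means no peak. Gdf15, Fgf21 and the Ddit4 region at 8276 bp have values in the 4 cold H3K27ac lists and in both cold H3K4me3 lists and in none of the warm lists. The HFD H3K27ac lists had sorted these regions, while the chow and H3K4me3 lists had not.

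Endothelial genes formed the other group with many cold-only regions. Of 12 endothelial markers, 5 were nearest to one (Flt1, Kdr, Egfl7, Cdh5 and Robo4), and 8 of the 91 regions nearest to markers of this list were cold-only (8.79%). Over all protein-coding genes the shares were 1.82% of genes and 1.65% of regions. Flt1 and Kdr encode receptors for vascular endothelial growth factor, Cdh5 the junction protein VE-cadherin, Egfl7 a secreted vessel factor and Robo4 a guidance receptor. Flt1 alone had 4 cold-only regions of 18, all in its introns 68390 to 80812 bp from the start site. Their fold values were 3.63 to 4.48 in mouse 10 and 4.33 to 7.18 in mouse 11, and all 4 had a peak in cold chow mouse 4. Those at 68390 and 80812 bp also had one in cold chow mouse 5, and the latter in both warm chow mice (4.09 and 4.45). Of the 8 endothelial regions, only the Flt1 region at 68390 bp had a peak in both cold and neither warm chow mouse. Egfl7, Cdh5 and Robo4 each had a peak in 1 warm chow mouse, and Kdr, with values of 3.54 and 6.25 on HFD, in no chow list. These were low-ranked peaks, with percentiles in mouse 10 of 2.94 to 42.6.

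The promoters of the same markers bear on how much endothelial signal each list held. Of 12 promoters, 2 and 11 had a peak in warm mice 7 and 8, and 10 and 11 in cold mice 10 and 11. Summed fold over the list was 9.65 and 65.3 in the warm mice and 74.1 and 111 in the cold mice, and Vwf had no promoter peak in any list. The part of the share of endothelial cells in these regions was not tested. Notch1 and Erg, genes with known roles in endothelium that were not on the list, also had 3 cold-only regions each, of 17 and 13, where 1.65% of regions nearest to any protein-coding gene were cold-only. They were picked after the counts were seen, from the genes with at least 3 cold-only regions, so their share was high by selection. Other genes so found were Mtss1l (4 of 12), N4bp3 (3 of 3) and Pmepa1 (3 of 15).

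Of the thermogenic genes, 8.00% were nearest to a cold-only region, against 1.82% of protein-coding genes, and by region 2.86% were cold-only, against 1.65%. These were 2 of 25 genes, Fgf21 and Ckb, the creatine kinase of a futile creatine cycle (fold values 4.70 and 5.98, no chow peak). Adrenergic and cyclic AMP genes gave 2 of 23 (8.70%), with 1.66% of their regions. These were Sik1, a kinase that restrains CREB coactivators, and Pde4a, a cyclic AMP phosphodiesterase. The Sik1 region at −18875 bp from the start site had values of 5.22 and 4.58, and that in the Pde4a intron of 5.06 and 5.09. Lipid droplet and lipolysis genes gave 3 of 24 (12.5%), with 2.11% of their regions, namely the fatty acid carriers Fabp5 and Cd36 and the monoglyceride lipase Mgll. The Mgll region was at percentile 2.94 in mouse 10 but had 14.5-fold enrichment in cold chow mouse 4 and no peak in either warm chow mouse. The others varied on chow. The Fabp5 region had a peak in all 4 chow lists (4.22 and 5.97 in the warm, 3.67 and 5.76 in the cold mice). The Pde4a region had one in warm mouse 2 (4.89) and in both cold mice. The Sik1 region at −18875 bp had one in warm mouse 1 (3.81) and cold mouse 4 (8.88), and Cd36 in cold mouse 4 alone. Fatty acid oxidation (Hadh), lipid synthesis (Acacb), immediate early (Ier3) and circadian clock genes (Arntl) gave 1 gene each. Of these, Ier3 had a peak in all 4 chow lists, Acacb in both cold lists alone, Hadh in cold mouse 5 alone and Arntl in no chow list. The adipogenic factors, adipokines, glucose genes, brown adipocyte markers, fibroblast, macrophage and muscle markers and the genes of other tissues gave none.

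Promoters were also called per gene, from any peak within 1000 bp of a start site, whatever merged region held it. By that call 0.46% of protein-coding genes had a promoter peak in both cold and neither warm list. Among the lists these genes were Fgf21, Gdf15, Trib3, Ckb, Fabp5 and Hk1. Hk1, a hexokinase gene nearest to no cold-only region, had 6.44 and 8.40 in the cold mice and was also marked in warm chow mouse 2 (8.36).

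Many thermogenic and lipid genes had a promoter peak in every list. This held for 13 of 25 thermogenic genes, 18 of 24 lipid droplet genes and 12 of 20 fatty acid oxidation genes, against 3.8% of protein-coding genes. Ucp1, the uncoupling protein, had promoter fold values of 11.2 and 15.6 in the warm and 11.7 and 19.6 in the cold mice, which overlap. Cidea, a lipid droplet protein, had 8.51 and 10.4 in the warm and 14.4 and 15.8 in the cold mice. Adrb3, the main β-adrenergic receptor of brown fat, had 5.24 and 6.57 in the warm and 13.8 and 21.4 in the cold mice. Fabp4, a fatty acid carrier, had 16.4 and 15.0 against 21.7 and 39.0. For Cidea, Adrb3 and Fabp4 the groups did not overlap on this raw scale.

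Raw folds also differed between libraries throughout. Over the 2156 regions in all 4 lists the median fold was 5.89 and 10.4 in warm mice 7 and 8 and 8.49 and 14.4 in cold mice 10 and 11. Quantile-normalised, the Adrb3 region differed by 0.38 on the log2 scale (SE 0.30, limma adjusted p = 0.825), the Fabp4 region by 0.30 (SE 0.33, limma adjusted p = 0.867) and the Ucp1 region by −0.14 (SE 0.31, limma adjusted p = 0.942). On that scale the Adrb3 values still did not overlap, as in 18.1% of these regions with cold higher, while the Fabp4 and Ucp1 values did. For Cidea only raw values are given here, so its separation cannot be told apart from the differences between libraries. Dio2, the deiodinase that activates thyroid hormone, had promoter values of 5.41 and 7.37 against 6.81 and 16.8. Ppargc1a, the coactivator of mitochondrial genes, had 7.22 and 7.08 against 6.45 and 14.1, and Pparg, the master factor of adipocytes, 6.52 and 13.4 against 9.26 and 24.4. Elovl3, a fatty acid elongase, had no peak in mouse 7 and 12.4, 3.99 and 9.35 in mice 8, 10 and 11. Prdm16, a brown fat regulator, was absent from both shallow lists (mice 7 and 10) and had 11.4 and 21.1 in mice 8 and 11. Adipoq, the adiponectin gene, had no peak in mouse 7 and 8.82, 4.85 and 10.9 in the others. The housekeeping gene Actb likewise lacked a promoter peak in mouse 7, and it was nearest to 1 cold-only region of the full lists. Lep, the leptin gene, and Alb had no promoter peak in any HFD list, and the lncRNA Gm15551 had one in mouse 8 alone (5.48). At Dio2, Ppargc1a and Pparg the values of the groups overlapped, and at Elovl3, Prdm16, Adipoq and Actb a list without the peak stood in at least 1 group.

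**Figure D3:**
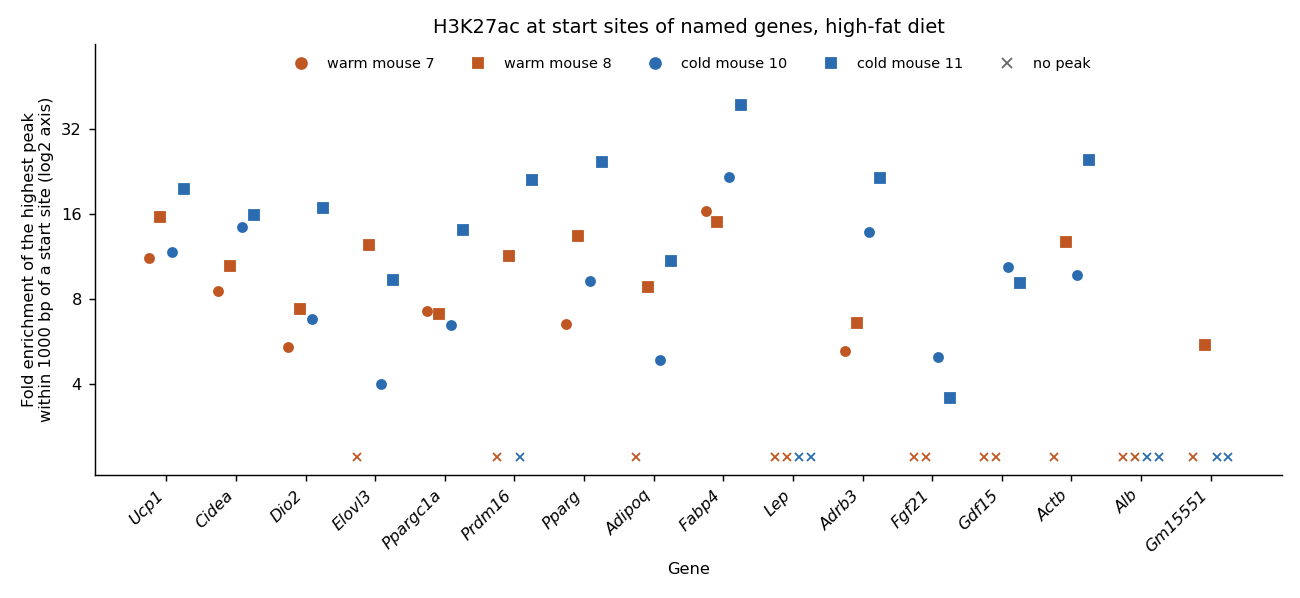
Fold enrichment of the highest H3K27ac peak within 1000 bp of a start site (log2 axis) for each named gene, with 1 point for each of the 4 HFD mice and crosses for no peak. On this raw scale, not normalised between libraries, cold values exceed warm values without overlap at Cidea, Adrb3 and Fabp4. Fgf21 and Gdf15 have peaks in the cold mice alone.

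Chow-fed mice offered a readout that had not sorted the regions. Of the 812 cold-only regions, 15.3% and 45.7% had a peak in warm mice 1 and 2, and 84.0% and 67.7% in cold mice 4 and 5. Thus cold chow mice exceeded warm chow mice by 45.4 percentage points, against 13.9 points over all regions. The two-sided exact permutation p was 0.333, the smallest that 2 against 2 mice allow. For cold-only regions over 1000 bp from a start site the shares were 10.3% and 40.2% against 85.4% and 64.2%. Among the 10000 highest chow peaks the shares were 3.33% and 5.30% against 41.7% and 10.1%, with mouse 4 far above mouse 5. Over all regions these shares were 19.4% and 25.8% against 23.8% and 24.1%, so that mouse 4 alone stood above its share over all regions. The chow lists also differed in length, with 16889 and 28433 peaks in the warm and 30544 and 30495 in the cold mice, and the part of list length was not tested.

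Of the cold-only regions, 184 (22.7%) had a peak in both cold and neither warm chow list, against 5.47% of all regions, and 1 showed the reverse, against 0.14%. Regions were also ranked by −log10 p within each chow list, at 0 where the list had no peak. Of the cold-only regions, 385 (47.4%) stood higher in both cold than in both warm mice, against 17.5% of all regions. Higher in both warm mice stood 5 (0.616%), against 2.38%. Of all regions, however, 11649 had no chow peak. Of the 2156 regions in all 4 HFD lists, 805 (37.3%) stood higher in both cold and 83 (3.85%) in both warm chow mice. Higher ranks in cold chow mice were thus not particular to the cold-only class. The 184 regions with the cold pattern on chow were in large part distal, with 48.9% over 10 kb from a start site and 12.0% at one. By rank they were led by the Gdf15 region. Also high in rank was a pair of regions 3365 bp and 10069 bp upstream of Mroh5, with fold values of 7.63 and 10.2 at the nearer and 7.30 and 11.5 at the farther. Mroh5 had 3 cold-only regions of the 5 nearest to it. An intron of Slc6a13, a GABA transporter gene, had 6.32 and 12.2. A region 36665 bp into Sgk1, a kinase gene induced by glucocorticoids, had 4.85 and 5.26.

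**Figure D4:**
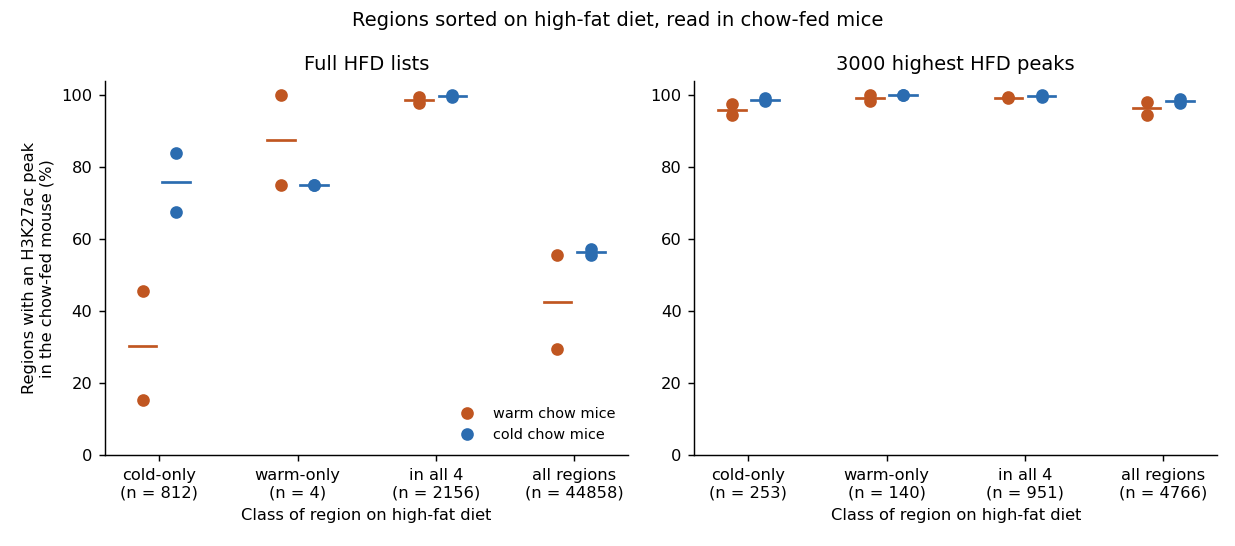
Percent of regions with an H3K27ac peak in each chow-fed mouse, by the class of the region on HFD, for the full lists (left) and the 3000 highest peaks (right), with 1 point per mouse and the mean of 2 mice as a bar. Cold-only regions of the full lists separate warm mice (15.3% and 45.7%) from cold mice (84.0% and 67.7%). Of the highest peaks, 236 of 253 cold-only and 138 of 140 warm-only regions had a peak in all 4 chow lists, as did 4435 of all 4766 regions.

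H3K4me3 of the same HFD mice was present at 8.99% and 15.8% of cold-only regions in the warm mice and at 20.4% and 33.0% in the cold mice. Over all regions it was present at 23.3% and 33.4% against 30.7% and 40.9%. Both cold and neither warm H3K4me3 list held a peak at 39 cold-only regions (4.80%), against 0.847% of all regions. The H3K4me3 lists held 13517 and 19079 peaks in the warm and 17195 and 24104 in the cold mice. H3K4me1 could not be read in the shallow pair, whose lists held 12 and 18 peaks. In mouse 8, with 17597 peaks, it was present at 8.99% of cold-only regions and 16.3% of all regions. In mouse 11, with 7774 peaks, it was present at 9.61% and 8.74%.

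A cold-only H3K27ac pattern on HFD, the same pattern on chow and the same pattern of H3K4me3 coincided at 10 regions. This was 1.23% of cold-only regions, while 0.0869% of all regions had both the chow and the H3K4me3 pattern. The 10 included the Gdf15, Fgf21 and nearer Ddit4 regions described above. Plaur, the urokinase receptor gene, had fold values of 4.11 and 3.52 on HFD and 7.51 and 5.57 on chow, 260 bp from its start site. Plec, which encodes the cytoskeletal linker plectin, had 3.99 and 4.21 on HFD, and Phc2, a Polycomb subunit gene, 4.24 and 6.89. The others were nearest to Hnrnpul1, Gm26716, 4921509O07Rik and 1700019N19Rik.

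The remaining cold-only regions of highest rank did not all keep the pattern. The first by rank, near Gm27940 at chr1:195241572-195241897, had 33.2-fold enrichment in mouse 10 and 5.02-fold in mouse 11 and was present in all 4 chow lists. Its −log10 p was 93.2 in mouse 10 and 109 in mouse 11 despite the lower fold there. H3K4me3 had a peak at this region in all 4 HFD mice, the warm ones included. The second, in the Ptp4a3 intron (8.77 and 9.97), was also in all 4 chow lists. Regions near Gm48199 (7.79 and 8.76), in the Spi1 intron next to Mybpc3 (7.66 and 10.2) and near Gm48868 (7.42 and 12.5) were in 3 chow lists, warm mouse 2 among them. That near Gm29323 (7.42 and 11.5) kept the cold pattern on chow, and that at B9d1os (7.42 and 8.48) was in all 4 chow lists.

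The 4 warm-only regions, nearest to 0.0182% of protein-coding genes, were in introns of Cldn34d, Vps45, Cdc20b (nearest gene Gpx8) and Hdgf. Gpx8 encodes an endoplasmic reticulum peroxidase. Its region had fold values of 5.29 and 10.5 in the warm HFD mice, and on chow it had a peak in warm mice 1 and 2 and in neither cold mouse. Cldn34d had 5.17 and 4.27, Vps45 5.13 and 10.6, and Hdgf 4.81 and 3.46. Cldn34d and Hdgf were in all 4 chow lists and Vps45 in 3.

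Among the 3000 highest peaks of each list, cold-only regions lay at start sites more often than all regions did (57.7% against 52.2%), and warm-only regions less often (35.7%). Among the lists themselves, mouse 7 stood apart on this measure, with 29.4% of its 3000 highest peaks at a start site, against 56.9%, 46.6% and 55.9% in mice 8, 10 and 11, and its part in the result was not tested. The limit left out only 224 peaks of mouse 7 but 11511 or more of each other list, and warm-only regions had a median percentile of 47.7 in mouse 7 and 93.9 in mouse 8. Most of these regions did have a peak in the other group, outside its 3000 highest. Of the 253 cold-only regions 252 had one in the full list of mouse 8 and 10 in that of mouse 7, and of the 140 warm-only regions 127 had one in mouse 10 and 138 in mouse 11. The cold-only regions were led by Gm27940, followed by promoters of Eed, a Polycomb subunit (fold 12.5 and 17.1 in the cold mice, 5.81 in mouse 8, none in mouse 7), Samm50, a mitochondrial outer membrane protein (13.5 and 25.3 against 4.99), Fbxl12os (13.1 and 19.5 against 5.24) and Orc6, a replication origin protein (14.1 and 19.4 against 5.71). A region in an intron of Bicra, a chromatin remodeller subunit, had 13.9 and 19.4 against 6.46. Nr1h3, the sterol-sensing receptor LXRα, had 13.2 and 14.2 against 6.11. Spry4, A530013C23Rik and a region in Sesn2 (nearest start site Gm12981) completed the first 10.

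Immediate early and cyclic AMP-responsive genes were nearest to such cold-only regions in 3 of 21 cases (Fosl2, Jun and Nr4a1), against 0.815% of protein-coding genes. By region, 3 of 17 were cold-only (17.6%), against 5.42% over protein-coding genes. Immediate early genes are switched on within minutes of a signal. Fosl2 had 8.44 and 20.4 in the cold mice and 8.84 in mouse 8. Jun had 6.56 and 15.5 in the cold mice and 6.66 in mouse 8. In fold, mouse 8 thus lay above mouse 10 at both genes, and neither had a peak in mouse 7. Cebpb, a factor of early adipogenesis, had 10.1 and 23.9 against 8.70. Crem, a cyclic AMP-responsive repressor, had a cold-only promoter peak of this kind (8.28 and 16.5 against 7.59), as did Vldlr, a lipoprotein receptor (9.36 and 11.2 against 5.50), and Pkm, the muscle pyruvate kinase gene (6.80 and 21.1 against 6.27). Cpt1b, which carries fatty acids into mitochondria, and a region at −37576 bp from the Ppargc1a start site were the thermogenic members. Pfkfb3, Lpin1, Esam and Pde4a were also nearest to 1 cold-only region each. In chow mice all of these but Pfkfb3 and Nr4a1 had peaks in all 4 lists, as did 4435 of all 4766 regions of the highest peaks.

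Genes of fatty acid synthesis had several warm-only regions among the highest peaks, but none of these separated the groups by percentile within the lists. Of 23 lipid synthesis genes 3 were nearest to a warm-only region of this kind, Fasn, Acaca and Acacb, against 0.374% of protein-coding genes. By region, 5 of 32 were warm-only (15.6%), against 2.59% over protein-coding genes. Fasn encodes fatty acid synthase, and Acaca and Acacb encode the acetyl-CoA carboxylases that make its substrate and gate fatty acid oxidation. The Fasn region had fold values of 5.32 and 9.06 in the warm mice, no peak in mouse 10 and 9.54 in mouse 11. Its within-list percentiles were 71.6 and 96.4 in the warm mice and 83.4 in mouse 11, so that mouse 11 ranked between the warm mice. Acaca had 3 such regions. The one 948 bp from a start site had 5.29 and 15.8 in the warm and 5.46 and 12.4 in the cold mice, at percentiles 25.2 and 96.7 against 42.6 and 91.6. The one at 2096 bp had 5.89 and 16.8 against 6.19 and 10.2, at percentiles 47.7 and 97.5 against 68.9 and 85.7. The one at 7437 bp had 5.43 and 11.1 in the warm mice, none in mouse 10 and 7.56 in mouse 11. The Acacb region (7.10 and 9.22 against 6.41 and 11.7) overlapped between groups, also by percentile (75.8 and 92.2 against 72.9 and 91.1). Insig1, a sterol sensor gene, had a warm-only promoter peak among the highest (5.58 and 10.3 in the warm mice, none in mouse 10 and 8.63 in mouse 11). Mlxipl, which encodes the carbohydrate-responsive factor ChREBP that switches on lipid synthesis, went the other way, with a cold-only promoter peak among the highest (8.08 and 23.7, against 6.21 in mouse 8 and none in mouse 7). At the same time, Acacb held a cold-only region of the full lists 19994 bp from a start site, with 4.24 and 5.58 in the cold mice.

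In chow mice the Fasn region ranked at percentiles 97.4 and 99.8 in the warm and 80.3 and 96.4 in the cold mice, without overlap. The Acaca region at 948 bp (88.3 and 94.1 against 77.0 and 85.8) also ranked higher in warm chow mice without overlap. The other 3 regions overlapped. Among all regions of the 3000 highest HFD peaks, 7.34% ranked higher in both warm chow mice and 29.4% in both cold ones. Of the 140 warm-only regions 7 (5.00%) ranked higher in both warm and 29 (20.7%) in both cold chow mice, so that the class as a whole did not carry the Fasn pattern. Of the 253 cold-only regions 19 (7.51%) ranked higher in both warm and 106 (41.9%) in both cold chow mice. A peak in both cold and neither warm chow list was held by 3 of the 253 cold-only regions, against 0.755% of all regions of these lists, and none of the 253 or the 140 showed the reverse, against 0.021%. Ldhb, a lactate dehydrogenase gene, and the neuronal gene Neurod1, whose region lay at −62555 bp, were the other list members with a warm-only region.

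**Figure D5:**
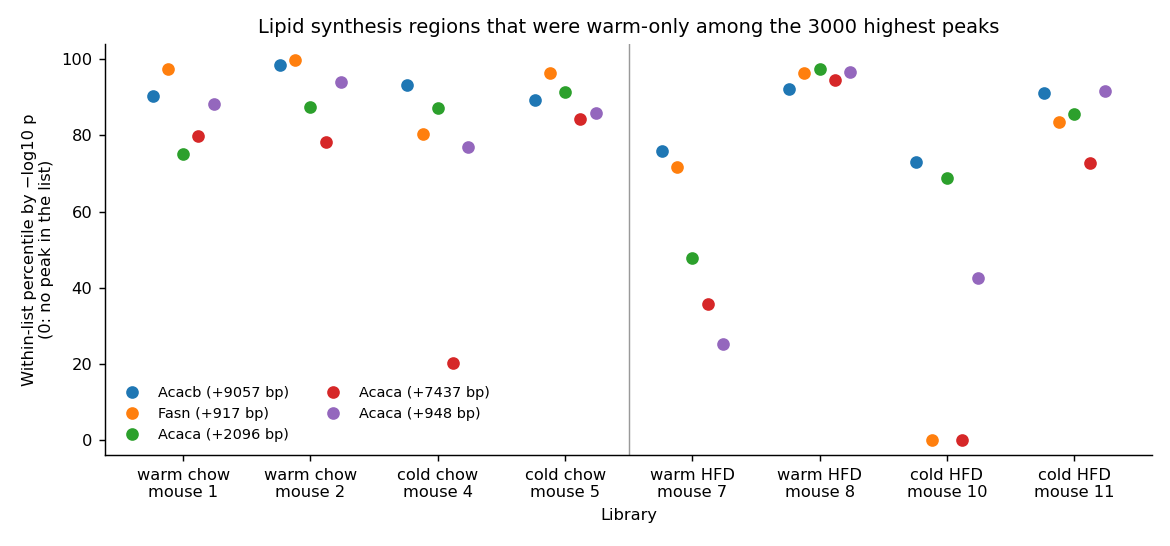
Within-list percentile by −log10 p (0 where the list has no peak) of the 5 lipid synthesis regions that were warm-only among the 3000 highest peaks, in each of the 8 mice. The Fasn region and the Acaca region at 7437 bp have no peak in cold HFD mouse 10, and the Fasn region ranks highest in the warm chow mice (97.4 and 99.8).

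The remaining high-ranked warm-only regions were near Gm43037, Gm5843, Tgoln1, Gm38534, Phb, Tes3-ps, Mtrf1, Gm34417 and Lrrn4. All of these had peaks in both cold lists, outside the 3000 highest. Phb, the gene of the mitochondrial scaffold protein prohibitin, had 7.22 and 10.6 in the warm and 7.30 and 8.86 in the cold mice.

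Where every list had a peak, fold enrichment could be tested. No region of the 2156 passed an adjusted p of 0.05 in limma (0%), and the smallest adjusted p was 0.376. At an unadjusted p under 0.05 were 80 regions with cold higher (3.71%) and 60 with warm higher (2.78%). The ranks of the groups did not overlap in 390 regions with cold higher (18.1%) and 427 with warm higher (19.8%). Simulated data of the same size drew the spread anew for each value, so that regions did not keep a spread of their own. There, 181 of 200 regions changed by 2 on the log2 scale were recovered. Of 200 regions changed by 1, 0 were recovered. Sizes between 1 and 2 were not simulated. Whether changes of 1 or 2 could be detected in the measured regions with 2 mice a group was not tested.

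The regions with the smallest p and cold higher were promoters. Kbtbd4, a ubiquitin ligase adaptor gene, had 3.62 and 6.45 in the warm and 22.7 and 29.2 in the cold mice, a log2 difference of 2.05 after normalisation (SE 0.34, limma adjusted p = 0.376). Wdr77, a subunit of an arginine methyltransferase complex, had 3.36 and 7.68 against 15.6 and 33.9. Atp5mpl, a small ATP synthase subunit, had 3.42 and 7.31 against 15.4 and 25.3, and Rbm5, a splicing regulator, 4.07 and 6.63 against 12.8 and 24.0. Gm24407 had 9.20 and 15.7 against 29.8 and 52.3. With warm higher were Snord13 (14.5 and 29.5 against 11.7 and 18.5), Gm5843 (7.83 and 15.1 against 5.83 and 5.90), B230206H07Rik (6.50 and 14.0 against 4.85 and 5.69), Cxcl9, a chemokine gene (6.98 and 13.0 against 5.34 and 5.74) and Cwc22, a splicing factor (10.4 and 14.3 against 5.71 and 10.4). None of these differences passed the adjusted threshold with all 4 mice, while without mouse 11 the Kbtbd4 region alone did (limma adjusted p = 0.0263). That fit has mouse 10 alone as the cold group and takes the spread from the 2 warm mice, so that mouse 10 is assumed to vary like them.

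The same regions were read in the chow mice. Over the 2105 regions with a peak in all 8 lists the chow difference was above 0 in 53.5%. It was above 0 in 27 of 79 regions (34.2%) of those with cold higher on HFD at an unadjusted p under 0.05, with a median chow difference of −0.23 on the log2 scale. It was above 0 in 28 of 58 regions (48.3%) of those with warm higher. Of the 79 regions with cold higher on HFD, 14 (17.7%) had both cold chow values above both warm ones, against 22.2% of all these regions. Of the 58 with warm higher, 11 (18.97%) had both warm chow values above both cold ones, against 15.3% of all. At start sites lay 75.9% of the regions with cold higher and 27.6% of those with warm higher, against 38.1% of all.

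The commonest motifs were about as frequent under cold-only summits as under all summits. The windows of 300 bases were searched on both strands for 10 motifs. The AP-1 motif TGANTCA was in 8.25% of cold-only windows and 8.05% of all windows, and the C/EBP motif TTGCNNAA in 8.74% and 10.8%. The steroid receptor element ACANNNTGT was in 8.13% and 8.35%. The cyclic AMP response element TGACGTCA was in 0.616% and 0.366%, the ERR element TCAAGGTCA in 1.11% and 1.72%, the ETS motif CCGGAAGT in 0.493% and 0.964% and the GC box GGGGCGGGG in 0.862% and 1.71%. The EBF palindrome was in 0.862% and 0.857%, and the DR1 and NFI palindrome motifs were in at most 0.0290% of all windows. Of the 9 windows shown, only that of Cldn34d holds a match, the 4 steroid receptor elements in capitals. In regions in all 4 lists the ERR element was in 3.11% of windows. Median GC content was 52.3% in cold-only and 49.3% in all windows.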

How the data were processed

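Brown adipose tissue H3K27ac ChIP-seq was compared between 2 cold and 2 warm HFD mice. Per the labels and the study's methods, cutadapt filtered the reads, Bowtie2 placed them on GRCm38, and MACS2 called narrow peaks against input. No source used here gives their versions or thresholds. The authors deposited 1 peak list per library, with a fold enrichment (a linear ratio over background) and the −log10 of the p-value and q-value of each peak. Read depth is not given in the lists. A relative background pileup was recovered from fold and −log10 p, and the shallow libraries limit detection of weak peaks. No interval was computed, since the lists hold no read counts.

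Peaks were merged with Python 3.11.15 (pandas 2.3.3, numpy 2.4.6) at an overlap of at least 1 bp, and summits were assigned to the nearest start site of the GENCODE M21 basic annotation. A peak within 1000 bp counted as at the start site. Presence in the chow H3K27ac lists and in the H3K4me3 and H3K4me1 lists was read per region. For single values, the mice of both groups were compared with an exact permutation test, two-sided. Regions with a peak in all 4 lists were tested with limma 3.58.1 (R 4.3.3) on quantile-normalised log2 fold, with Benjamini-Hochberg adjustment over the 2156 regions, after a check on simulated data. Each p-value measures only the spread between these samples. Figures were drawn with matplotlib 3.10.9, and window sequences were read from GRCm38.

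The genes named were a set of 16 genes chosen for brown fat and cold biology, the nearest genes of the 10 highest-ranked regions of each class, of the 5 regions with the smallest limma p in each direction, and of the cold-only and warm-only regions of each gene list. A few genes that this rule names are not reported here. The members, gene lists and tests were chosen with earlier results of these data known. Alternatives were the number of peaks per list, a −log10 q minimum, summit windows, joining distance, start site distance, normalisation and leaving out each mouse.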

Additional observations from a re-analysis of the deposited data

How the results depend on the processing

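No paired analysis was possible because the cold and warm mice share no replicate number. A term for the pairs of like depth (mice 7 and 10, mice 8 and 11), which are not pairs of the design and were chosen after seeing the data, left 0 regions called (smallest limma adjusted p = 0.275). Cold-only regions numbered 812 in the full lists, 253 and 98 among the 3000 and 1000 highest peaks, 147 at a −log10 q of at least 5 and 1257 with windows around summits. Warm-only regions numbered 4, and 140, 51 and 95 among the 3000 highest, the 1000 highest and in summit windows. Leaving out 1 mouse gave 812 to 16128 cold-only and 4 to 5763 warm-only regions, the latter without mouse 7. Pairs of like depth, added after seeing the data, gave 11935 and 125 for mice 7 and 10, and 16128 and 5810 for mice 8 and 11. Among the 3000 highest peaks, leaving out 1 mouse gave 486 to 785 cold-only and 232 to 702 warm-only regions, and only 1 and 2 regions had no peak in the full lists of the other group. In regions of all 4 lists, limma called 0 to 1 regions when 1 mouse was left out, that 1 (Kbtbd4) without mouse 11, where the spread comes from the warm mice, and 0 under the other alternatives, with a smallest limma adjusted p of 0.0263 to 0.801. The log10 difference in the number of peaks (0.37) ran from −0.14 to 0.877 when 1 mouse was left out. The difference in the share of peaks at start sites (0.509 points) was −0.944 points within 2500 bp and ran from −1.83 to 2.85 points when 1 mouse was left out. The difference in chow peaks at cold-only regions (45.4 points) kept its direction at 30.2 to 60.6 points. The causes of these changes were not tested. Mouse 7 held too few peaks for absence from its list to be read as absence of the mark.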
